A study of Homo sapiens with 9 samples.

Results

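The mRNAs of the prefoldin subunits and of their prefoldin-like relatives UXT, URI1 and PDRG1 were followed in vesicles shed by the established human embryonic stem cell line H9. Every probe set of the array whose annotation gives PFDN1, PFDN2, PFDN4, PFDN5, PFDN6, VBP1, UXT, URI1 or PDRG1 was taken. This gave 14 probe sets paired with 1 gene each, for 8 of the 9 genes, out of 54675 probe sets in all. The other gene, PFDN6, is reached only by 4 probe sets that the annotation pairs with both PFDN6 and the microRNA gene MIR6834, and these are described apart and are not in the member counts.

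The series holds 9 expression arrays (Affymetrix HG-U133 Plus 2.0), from 3 biological samples each of microvesicles (MVs), exosomes (EXOs) and non-fractionated vesicles (hESEVs). All came from medium of untreated, serum-free and feeder-free H9 cultures, so the groups differ by how vesicles were pelleted and not by genotype or treatment. A spin of 1 hour at 16500g pelleted MVs, and EXOs were pelleted from the remaining supernatant in 2 hours at 120000g, after clearing spins that included 1 at 2800g. hESEVs were pelleted per the labels at 120000g for 2 hours after a single clearing spin at 300g, while the study's methods give another spin for them. The preparations are defined by centrifugation from 1 cell line, and neither pellet is a purified vesicle type. By electrophoresis, the paper found much longer RNAs in MVs than in EXOs, whose RNAs were mainly short, and both kinds in hESEVs. The share of this length difference in the signals was not tested. With equal RNA on each array, fewer mRNA copies per vesicle and another makeup of the RNA cannot be told apart.

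Prefoldin is a jellyfish-shaped co-chaperone that catches newly made actin and tubulin chains at the ribosome and hands them to the CCT chaperonin for folding. It is built from alpha-type subunits (VBP1, also called prefoldin subunit 3, and PFDN5) and beta-type subunits (PFDN1, PFDN2, PFDN4 and PFDN6). UXT, URI1 and PDRG1 form a related complex with PFDN2 and PFDN6 inside the PAQosome, which helps to assemble RNA polymerases and other large complexes.

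Promoter sequences were looked up for the members in RefSeq (assembly GRCh38.p14), and 8 of the 9 genes matched, all but PFDN2. Each window runs from 250 bases before to 50 bases after an annotated start and is given 5′ to 3′ on the strand of the gene. The 3 windows shown belong to the member with the largest log2 fold change between MVs and EXOs (UXT), to a member that was higher in MVs (PFDN4) and to a member that did not pass the test (PFDN1). Capitals mark CCGGAAG, a core recognised by ETS factors, in UXT, and AAGATGGC, a core recognised by YY1, in PFDN4 and PFDN1.
UXT (chrX:47659131-47659430, - strand): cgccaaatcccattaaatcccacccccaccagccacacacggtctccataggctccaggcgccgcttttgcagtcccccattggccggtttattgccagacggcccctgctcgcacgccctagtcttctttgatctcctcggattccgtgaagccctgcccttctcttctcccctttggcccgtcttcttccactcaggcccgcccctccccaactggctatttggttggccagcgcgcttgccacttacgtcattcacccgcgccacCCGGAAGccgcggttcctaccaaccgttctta
PFDN4 (chr20:54207837-54208136, + strand): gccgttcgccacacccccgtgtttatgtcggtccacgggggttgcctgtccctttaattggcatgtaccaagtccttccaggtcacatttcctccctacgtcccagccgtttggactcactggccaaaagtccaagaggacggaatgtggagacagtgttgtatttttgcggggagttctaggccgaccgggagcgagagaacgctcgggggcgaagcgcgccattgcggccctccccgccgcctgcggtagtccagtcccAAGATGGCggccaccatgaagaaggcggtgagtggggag
PFDN1 (chr5:140303052-140303351, - strand): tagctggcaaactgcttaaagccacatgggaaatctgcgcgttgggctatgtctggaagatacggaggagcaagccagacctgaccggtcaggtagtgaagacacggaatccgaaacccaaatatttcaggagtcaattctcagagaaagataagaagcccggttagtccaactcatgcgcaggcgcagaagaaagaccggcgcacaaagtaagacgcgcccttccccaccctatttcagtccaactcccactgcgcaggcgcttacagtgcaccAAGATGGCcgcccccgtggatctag
In all 3 windows the marked letters lie in the bases after the start. The motifs were chosen after the windows had been read and were searched on both strands, and CCGGAAG ends in the letters AAG with which AAGATGGC begins, so that they can overlap there. CCGGAAG was found in the windows of 5 of 8 members (PDRG1, PFDN5, PFDN6, URI1 and UXT), against 12.2% of all 27305 genes with a window. AAGATGGC was found for 3 of 8 members (PFDN1, PFDN4 and VBP1), against 3.52% of all genes. CCAAT was found for 3 of 8 members (PFDN4, UXT and VBP1), against 39.7%, and TATAAA for 0 of 8, against 14.0%. The AAGATGGC letters thus stand in the window of PFDN1, whose mRNA did not pass the test below, as well as in those of PFDN4 and VBP1, which did.

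The authors deposited MAS5 intensities on a linear scale, 1 for each probe set and called the signal here, with each array scaled to the same target. Median signals ran from 358 to 365 over the arrays of MVs, from 422 to 429.7 over those of EXOs and from 415 to 421 over those of hESEVs. Signals were raised to a floor of 32 and put on a log2 scale, and groups were compared with limma over all 54613 probe sets that are not controls. A call needed a 2-fold difference or more together with a two-sided p under 0.05 after Benjamini-Hochberg adjustment. Of 11 measured stem cell marker genes, 11 were called higher in MVs than in EXOs, and of 34 genes restricted to other tissues, 1 was higher (TNNI3) and 1 lower (SFTPC). The 90th percentile of the mean signals of those 34 genes, taken as a background level, was 1236 in MVs, 1307 in EXOs and 1238 in hESEVs. The mean signal of 6 of the 14 member probe sets lay above this level in MVs, of 0 in EXOs and of 4 in hESEVs, so the size of a fold change against EXOs is uncertain for every member.

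Between MVs and EXOs, 8 of the 14 member probe sets were higher in MVs and 0 were lower, against 7.23% higher and 1.97% lower among all probe sets tested. Their median log2 fold change, MVs minus EXOs, was 2.04, against -0.29 over all probe sets. By gene, with the brightest probe set standing for each, 6 of the 8 members were higher in MVs (UXT, PFDN4, PFDN5, VBP1, PFDN2 and URI1), against 11.6% higher and 2.77% lower among 19775 genes, and PFDN1 and PDRG1 did not pass the test. Another scaling, with every array centred on its median, moved the share of all called probe sets that were higher in MVs to 93.4% from 78.6%, and the median over all probe sets to -0.07. With quantile normalization that share was 71.0%. The median of the members was 2.28 with median centring and 1.87 with quantile normalization.

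**Figure D1:**
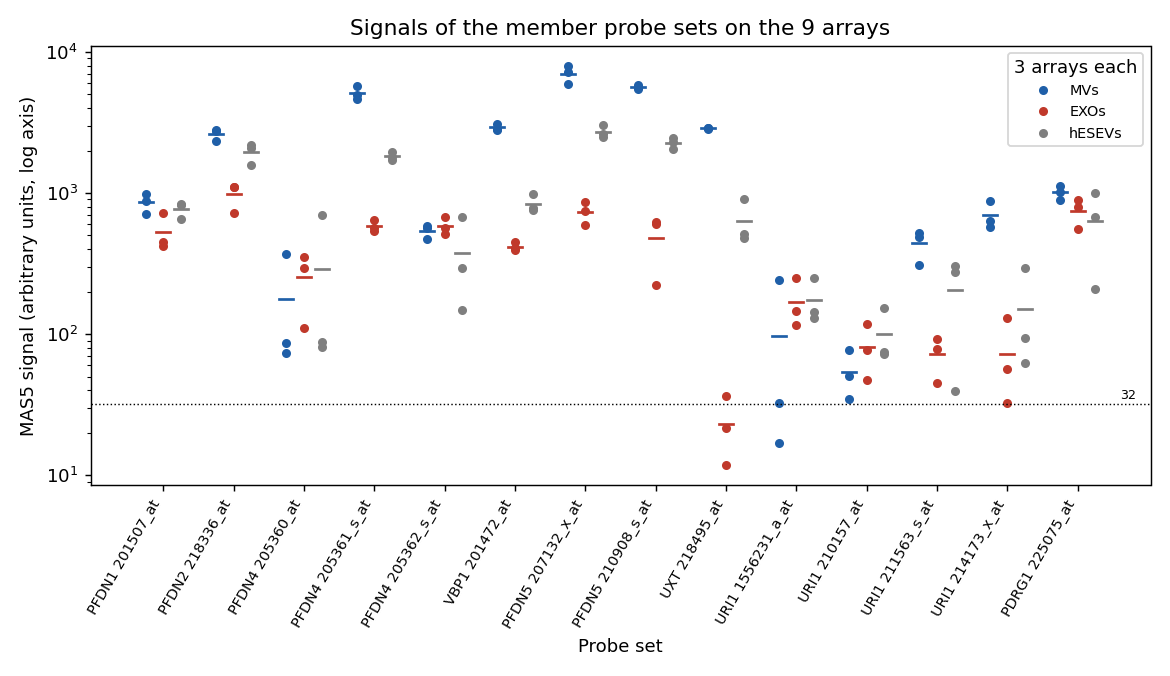
MAS5 signal (log axis, arbitrary units) of the 14 single-gene member probe sets on each of the 3 MVs, 3 EXOs and 3 hESEVs arrays, with bars at the group means and a dotted line at the floor of 32. The UXT signals lie between 2864 and 2876 in MVs and at 36.2 or less in EXOs, and the brightest probe sets of PFDN4, PFDN5 and VBP1 have their hESEVs arrays between the other groups.

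UXT (gene ID 8409, chromosome X), an alpha-type prefoldin-like protein known as a cofactor of the androgen receptor and of NF-kappaB, had the largest log2 fold change among the members between MVs and EXOs, a rank that rests on EXOs signals far under the background level. Its only probe set, 218495_at, gave signals of 2865, 2864 and 2876 on the MVs arrays, 36.2, 11.8 and 21.4 on the EXOs arrays and 912, 509.5 and 480.4 on the hESEVs arrays. The MVs arrays were nearly equal, and no group overlapped another. Over all probe sets tested, the arrays of MVs and EXOs did not overlap for 34.7%. A lack of overlap between these groups is therefore common, for UXT and for the members below. Against EXOs the log2 fold change in MVs was 6.43 (95% interval 5.55 to 7.31, limma adjusted p = 2.0e-05), or 86.1-fold. The size of this fold hangs on the floor, since 2 of the 3 EXOs signals lay under it: the log2 fold change was 7.10 with a floor of 1 and 4.84 with a floor of 100, and the call held with both. Within its own array, the UXT signal stood in MVs at percentiles 97.0 to 97.1 of all probe sets, in EXOs at percentiles 0.4 to 4.8 and in hESEVs at percentiles 56.1 to 84.8. RefSeq also lists the noncoding gene UXT-AS1 over the UXT locus.

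The alpha-type subunits of prefoldin itself were also higher in MVs. VBP1 (gene ID 7411, chromosome X), named for its binding to the von Hippel-Lindau tumor suppressor, gave 2795, 3099.7 and 2843 in MVs, 396, 446 and 410 in EXOs and 754, 781 and 979.7 in hESEVs. The groups did not overlap, and the log2 fold change of MVs over EXOs was 2.80 (2.49 to 3.12, adjusted p = 6.2e-06), or 6.98-fold.

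PFDN5 (gene ID 5204, chromosome 12) is also known as MM-1 and binds the MYC protein. Its probe set 207132_x_at gave 7156, 7956 and 5952 in MVs, 867, 594 and 740.3 in EXOs and 3042, 2502 and 2625 in hESEVs. Its other probe set, 210908_s_at, gave 5679, 5810.3 and 5460.5 in MVs, 618, 222 and 608 in EXOs and 2443, 2284 and 2054 in hESEVs. Both showed the same order of the groups with no overlap, and MVs were higher than EXOs by a log2 fold change of 3.27 (adjusted p = 1.0e-05) with the first and 3.69 (adjusted p = 0.000447) with the second. The name of 210908_s_at marks probes shared between transcripts, and that of 207132_x_at marks probes that may also match other sequences.

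Of the beta-type subunits, PFDN4 (gene ID 5203, chromosome 20) had 1 bright probe set, 205361_s_at, with 4942, 4609.7 and 5727 in MVs, 562, 534 and 647 in EXOs and 1807, 1718 and 1962 in hESEVs. With that probe set the groups did not overlap and the log2 fold change of MVs over EXOs was 3.13 (2.82 to 3.44, adjusted p = 3.3e-06). The other probe sets of PFDN4 did not show this difference. Their means lie under the background level in every group, so they cannot show that a difference is absent. Probe set 205362_s_at gave 579, 469 and 565 in MVs, 509, 679 and 567 in EXOs and 295, 147 and 679.7 in hESEVs, and 205360_at gave no more than 372 in MVs, 353 in EXOs and 694 in hESEVs. The groups overlapped with both, and neither was called (log2 fold change, MVs minus EXOs, -0.12 and -0.76). RefSeq lists 2 PFDN4 pseudogenes and 1 of PFDN1 (PFDN4P1, PFDN4P3 and PFDN1P2), whose share in these signals was not tested.

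PFDN2 (gene ID 5202, chromosome 1), a subunit of both prefoldin and the URI1 complex, gave 2797, 2731 and 2326 in MVs, 1107, 718 and 1109.7 in EXOs and 2081, 1578 and 2185 in hESEVs. MVs stood above both other groups on every array. The log2 fold change was 1.44 over EXOs (1.00 to 1.89, adjusted p = 0.0023), and 0.44 over hESEVs (0.01 to 0.87), which did not pass the test (adjusted p = 0.220).

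PFDN1 (gene ID 5201, chromosome 5) gave 715, 987 and 876 in MVs, 447, 721 and 419 in EXOs and 839, 823 and 657 in hESEVs. The arrays of MVs and EXOs overlapped, and the log2 fold change of 0.73 (0.10 to 1.37) missed the test (adjusted p = 0.131). Its interval reaches past a 2-fold difference, so a change of that size was not shown to be absent.

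PFDN6 (gene ID 10471, chromosome 6) cannot be told from MIR6834 by the annotation, since the hairpin lies within the gene. RefSeq also lists WDR46 over the PFDN6 locus. The accession given for 222029_x_at is a PFDN6 transcript of RefSeq. Those given for 233588_x_at and 242048_at are not, and 222019_at has none. Probe set 222029_x_at gave 1750.1, 1853 and 1623 in MVs, 285, 517 and 749.8 in EXOs and 1336, 909 and 1695 in hESEVs. Probe set 233588_x_at gave 1964, 2081 and 1578 in MVs, 612, 783 and 541 in EXOs and 1501, 1976 and 1031 in hESEVs. MVs did not overlap EXOs with either, and both were called, by log2 fold changes of 1.86 (adjusted p = 0.0096) and 1.55 (adjusted p = 0.0015). The other probe sets with this pair of names, 222019_at and 242048_at, had log2 fold changes of 0.01 and -0.40 and were not called.

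Among the other prefoldin-like members, URI1 (gene ID 8725, chromosome 19), the scaffold of the complex that binds the RPB5 subunit of RNA polymerases, was low. Probe set 214173_x_at gave 573, 882 and 637 in MVs, 56.4, 32.5 and 129 in EXOs and 94.4, 62.5 and 295 in hESEVs. Probe set 211563_s_at gave 489.9, 310.4 and 524 in MVs, 78.5, 45.2 and 92.2 in EXOs and 39.2, 306 and 274 in hESEVs. MVs stood above EXOs and hESEVs on every array with both, and the log2 fold changes of MVs over EXOs were 3.47 (1.94 to 5.00, adjusted p = 0.0132) and 2.64 (1.29 to 4.00, adjusted p = 0.0252). All these signals lie under the background level. The name of 214173_x_at marks probes that may also match other sequences. Without MVs replicate 2 the adjusted p was 0.0595 and 0.0515, and without MVs replicate 3 it was 0.051 and 0.0794, so neither call held in those fits. The call of 211563_s_at was also lost without MVs replicate 1 (0.0788), EXOs replicate 1 (0.0564) or EXOs replicate 2 (0.061). The remaining URI1 probe sets, 1556231_a_at and 210157_at, overlapped between MVs and EXOs, with log2 fold changes of -1.35 and -0.56, and were not called. RefSeq also lists RPL9P32 over the URI1 locus, whose share in these signals was not tested.

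PDRG1 (gene ID 81572, chromosome 20), named for its regulation by p53 and DNA damage, gave 1020.4, 887 and 1118 in MVs, 552, 899 and 802 in EXOs and 1005, 671 and 210.4 in hESEVs. The groups overlapped, and the log2 fold change of 0.45, MVs minus EXOs (-0.07 to 0.97), did not pass the test (adjusted p = 0.236). RefSeq also lists TTLL9 over the PDRG1 locus.

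**Figure D2:**
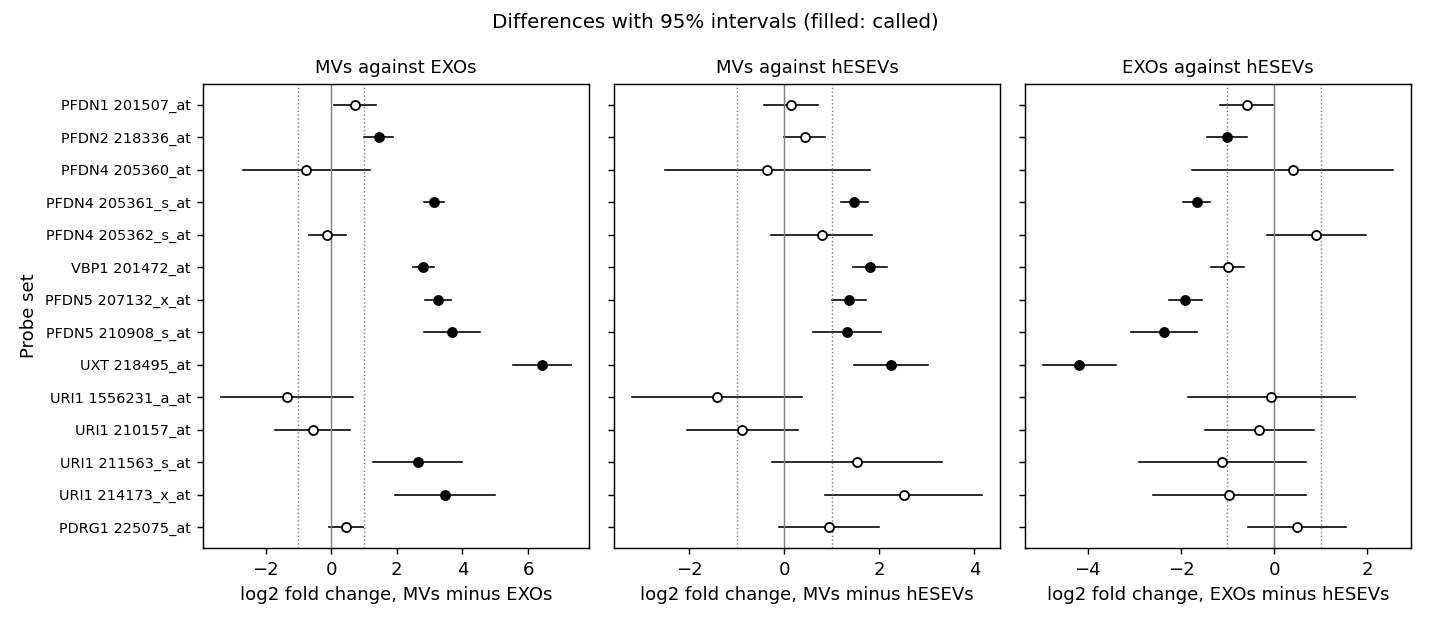
Log2 fold change (x axis) of the 14 member probe sets in MVs against EXOs, MVs against hESEVs and EXOs against hESEVs, with 95% intervals, dotted lines at a 2-fold difference and filled points for called probe sets. UXT stands farthest from 0 in MVs against EXOs (6.43) and in EXOs against hESEVs (-4.19), sizes that hang on the floor. The probe sets of PFDN4 and of URI1 do not move together.

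The choice of probe set decided the result for PFDN4 and URI1. With the log2 signals of all single-gene probe sets of a gene averaged, the log2 fold change of MVs over EXOs was 0.75 for PFDN4 (adjusted p = 0.0945) and 1.05 for URI1 (adjusted p = 0.184), and neither was called. PFDN5 kept its call with a log2 fold change of 3.48, and UXT, VBP1 and PFDN2, with 1 probe set each, kept theirs. Without probe sets whose names end in _s_at or _x_at, called shared here, 3 member genes were called in place of 6. Of all genes it was 10.2% of 17098 in place of 14.4% of 19775. PFDN5 has no probe set left then, and PFDN4 and URI1 are read from the dim ones.

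The hESEVs arrays serve both of the comparisons that follow. Against hESEVs, 5 of the 14 member probe sets were higher in MVs and 0 were lower, where 4.25% of all probe sets were higher and 1.05% lower. The 5 were UXT, by a log2 fold change of 2.24 (1.46 to 3.02, adjusted p = 0.0026), VBP1 by 1.81 (adjusted p = 3.8e-05), the bright probe set of PFDN4 by 1.47 (adjusted p = 4.0e-05), and PFDN5 by 1.36 (adjusted p = 0.000343) and 1.32 (adjusted p = 0.0311). The hESEVs means of UXT (634) and VBP1 (838) lie under the hESEVs background level of 1238, so the sizes of these differences are uncertain too. With quantile normalization 2 of them, UXT (1.86) and VBP1 (1.39), were called, and PFDN4 stood at 0.65 and PFDN5 at 0.34 and 0.41. Calls in either direction over all 54613 probe sets also fell with it, to 1605 from 2892. The call of PFDN5 210908_s_at was lost when any 1 array of MVs or hESEVs was left out, with an adjusted p between 0.0758 and 0.102.

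In EXOs, 0 member probe sets were higher than in hESEVs and 5 were lower, where 0.103% of all probe sets were higher and 1.95% lower. UXT fell by 4.19 on the log2 scale (interval -4.97 to -3.41, adjusted p = 4.1e-05), PFDN5 by 2.37 (adjusted p = 0.0016) and 1.90 (adjusted p = 4.2e-05), PFDN4 by 1.66 (adjusted p = 2.3e-05) and PFDN2 by 1.01 (adjusted p = 0.0178). The size for UXT hangs on the floor here too. Its log2 fold change was -4.86 with a floor of 1 and -2.60 with a floor of 100, and the call held with both. Both group means of UXT lie under the background level. VBP1, with a log2 fold change of -0.998 (adjusted p = 0.0051), lay just inside a 2-fold difference and was not called. PFDN2 lost its call without EXOs replicate 2 (-0.80), without hESEVs replicate 1 (adjusted p = 0.0845) or without hESEVs replicate 3 (adjusted p = 0.0843).

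For the 8 member probe sets called between MVs and EXOs, the mean hESEVs signal was placed on a linear scale with EXOs at 0% and MVs at 100%. It lay between 12.5% (URI1 214173_x_at) and 59.1% (PFDN2), with a median of 29.7%, and UXT was at 21.5%. Over all 3949 probe sets higher in MVs than in EXOs the median was 21.9%, with an interquartile range of 13.0% to 33.2%. The median of the members lay within that range.

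**Figure D3:**
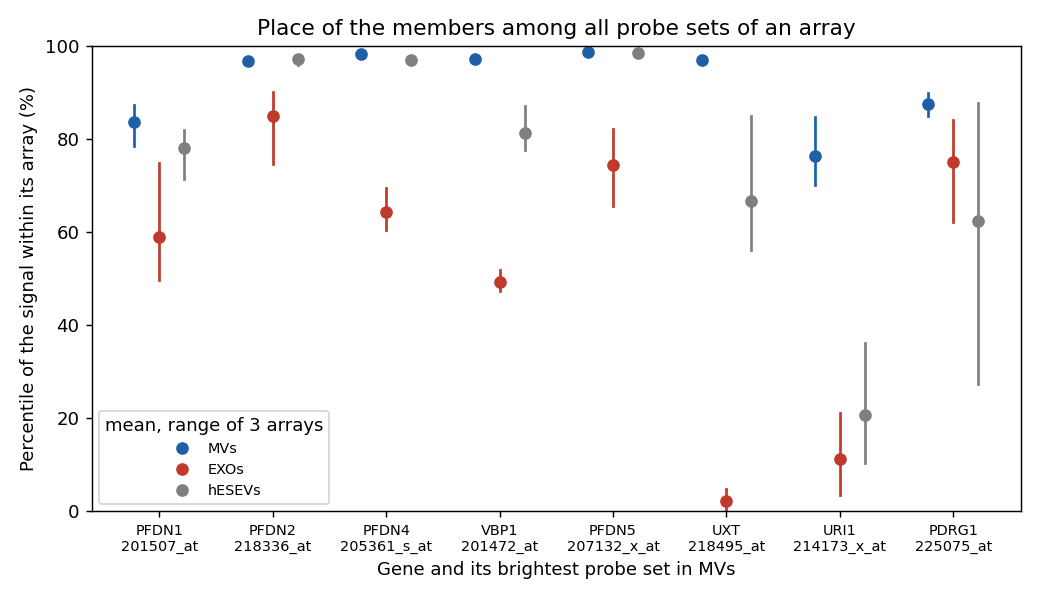
Percentile of the signal among all probe sets of the same array (y axis, %) for the brightest probe set in MVs of each member gene, with the mean (point) and the range (line) of 3 arrays in MVs, EXOs and hESEVs. UXT, VBP1, PFDN2, PFDN4 and PFDN5 stand at the 96.3 percentile or above on every MVs array, and UXT stands at or below the 4.8 percentile in EXOs.

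The rank of a signal within its array, which does not depend on a scaling factor, gave the order MVs, hESEVs, EXOs for VBP1 and PFDN4 as well as for UXT. VBP1 stood at the 97.0 to 97.3 percentile in MVs, against 47.3 to 51.7 in EXOs and, in hESEVs, 77.7 to 87.1. PFDN4 205361_s_at stood at 98.2 to 98.6 in MVs, against 60.5 to 69.5 in EXOs and, in hESEVs, 96.7 to 97.5. PFDN2 did not keep the order between MVs and hESEVs, with 96.3 to 97.0 in MVs, against 74.7 to 90.2 in EXOs and, in hESEVs, 96.0 to 97.9.

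The genes whose log2 signals over the 9 arrays, centred on their own mean, were most like those of UXT were taken from 5986 non-member genes with a group mean over 1000. The root mean square difference was 0.29 for MCM5, a subunit of the replicative helicase, 0.38 for NDUFA13, a subunit of respiratory complex I, 0.53 for CHMP2A, a part of the ESCRT-III machinery, and 0.55 for both HK1, a hexokinase, and MTX1, a protein of the outer mitochondrial membrane. The next gene was at 0.58, so the last of these hardly stand apart. MCM5 averaged 2541 ± 279 in MVs, 34.7 ± 7.14 in EXOs and 729 ± 92.6 in hESEVs (SD, n = 3 each). The nearest member, PFDN5, was at 1.35. These distances are a description only: the EXOs signals of UXT and of all 5 genes lie under the EXOs background level, as do the hESEVs means of all but NDUFA13, and a likeness between signals at that level is uncertain.

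The partners that prefoldin and the URI1 complex work with were counted by gene between MVs and EXOs, against the 11.6% of all genes that were higher. Of the CCT chaperonin subunits, which receive chains from prefoldin, 7 of 7 measured were higher in MVs, with a median log2 fold change of 3.60, and CCT5 averaged 4379 ± 522 in MVs and 178 ± 63.4 in EXOs. CCT2, CCT8 and CCT3 were higher by 2.56, 3.60 and 4.06. The EXOs means of CCT5, CCT8 and CCT3, unlike that of CCT2, lay under the EXOs background level of 1307. The sizes of those differences are therefore uncertain. Of the tubulins and actins that the pathway folds, 9 of 9 were higher, with a median of 3.41, among them TUBA1C (3.41), TUBA1A (3.72), TUBB2A (3.75) and ACTB (2.95). TUBA1C, TUBA1A and ACTB, but not TUBB2A, were read from shared probe sets, so these genes may not be separate results. CCT2 and CCT8 were read from shared probe sets too, but CCT3 and CCT5 were not. The EXOs means of TUBA1A and TUBB2A also lay under the background level, and those of TUBA1C and ACTB did not.

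Of the PAQosome partners, 4 of 6 were higher, with a median of 2.57. These were the ATPases RUVBL1 (3.42) and RUVBL2 (3.02), the adaptor PIH1D1 (2.73) and POLR2E (2.41), which encodes RPB5. RPAP3 (1.25, adjusted p = 0.0748) and DNAAF10 (0.18, adjusted p = 0.627) did not pass the test. Of the tubulin cofactors and phosducin-like genes 4 of 7 were higher, TBCA (3.34), TBCB (4.46), ARL2 (2.41) and TBCE (1.01), with a median of 1.75. Among the called genes of both lists, TBCA alone had an EXOs mean (1562) above the EXOs background level of 1307. The sizes of the other differences are therefore uncertain. Only PIH1D1 and TBCA among these called genes were not read from shared probe sets. VHL, whose protein VBP1 binds, was not called (-0.76, adjusted p = 0.103). Over all 19775 genes the median was -0.23.

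**Figure D4:**
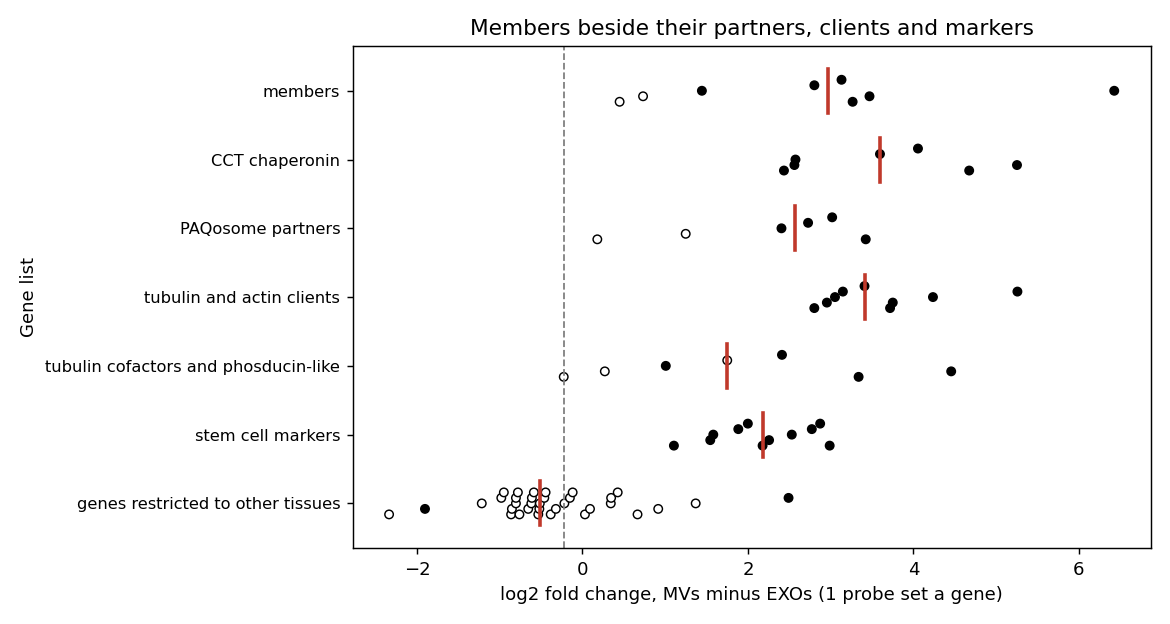
Log2 fold change of MVs over EXOs (x axis) for the 8 measured members and for each list of partners and markers, 1 probe set a gene, with filled points for called genes, a red bar at the list median and a dashed line at the median of all genes (-0.23). The medians of the members, the CCT subunits and the tubulin and actin clients are 2.97, 3.60 and 3.41, and that of the genes restricted to other tissues is -0.52.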

How the data were processed

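Total RNA (200 ng) from MVs, EXOs and hESEVs was hybridised to 9 arrays. The authors deposited intensities summarised with MAS5 (version not given in the sources used here) and scaled to a target of 500. The RMA values of the study's methods were not used here. Samples were grouped by the labels, whose texts differ on the first clearing spin of MVs. Of 41091 probe sets paired with 1 gene by the platform annotation, 41043 matched a RefSeq gene ID, and no symbol differed.

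Signals were raised to 32, and log2 values were fitted with limma 3.58.1 in R 4.3.3 (lmFit, eBayes with a trend), on 6 arrays for MVs against EXOs and on all 9 for comparisons with hESEVs. Control probe sets (62) were left out. For tests by gene, each gene was represented by its brightest probe set. The procedure was tested on simulated data. The members, lists and motifs were chosen with earlier results of these data known. Every member probe set is named, up to 4 genes with the smallest p per partner list, and the 5 genes most like UXT. RPAP3, DNAAF10, TNNI3 and SFTPC are outside this rule and were named after their values were seen. Alternatives were median centring, quantile normalization, shifting arrays to the spike-ins, floors of 1 and 100, a filter at a mean of 200, no trend, a replicate block, the methods' t-test, other arrays in the fit, other uses of probe sets and each replicate left out. Over all probe sets, same-numbered arrays of different groups did not deviate together (correlations -0.01 to 0.01), and numbers were not taken to pair arrays. This cannot exclude pairing, since many probe sets are dim and MVs and EXOs may have come from the same cultures. Precision is limited by the number of arrays, which give no counts. Python 3.11.15, pandas 2.3.3 and matplotlib 3.10.9 were used for sequences and figures.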

Additional observations from a re-analysis of the deposited data

How the results depend on the processing

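Of the 911 fits of a single member probe set under an alternative, none reversed a called direction, and 17 changed sign while uncalled in both. Between MVs and EXOs the main counts were 5027 probe sets, 2841 genes and 6 member genes. The methods' t-test after adjustment called 3089 probe sets and 1887 genes, and leaving out the shared probe sets gave 1746 genes and 3 member genes. Between MVs and hESEVs the main counts were 2892 probe sets and 5 member probe sets; quantile normalization gave 1605 and 2, and the methods' t-test without adjustment gave 5163 probe sets. Between EXOs and hESEVs the main counts were 1120 and 5; the methods' t-test gave 2327 probe sets without adjustment, and 329 with 2 members after it, and a fit of only those 6 arrays gave 739 probe sets. Beyond the probe sets or arrays left out, the cause of these shifts was not tested. With a replicate block, 4099 probe sets and 7 member probe sets were called between MVs and EXOs, where URI1 211563_s_at had an adjusted p of 0.0561, and the block changed no other member call. URI1 211563_s_at also lost its call with all 9 arrays in the fit (0.0539), and with the adjusted t-test so did URI1 214173_x_at (0.0593) and 222029_x_at of PFDN6 and MIR6834 (0.0933). Between MVs and hESEVs, PFDN5 210908_s_at lost its call with no trend (0.110) and with a floor of 100 (0.0742). Between EXOs and hESEVs, PFDN2 lost its call with no trend (0.156), a floor of 100 (0.0507), only those 6 arrays (0.081) and the spike-in shift (log2 fold change -0.98). With the adjusted t-test PFDN2 (0.353) and both PFDN5 probe sets, 207132_x_at (0.0565) and 210908_s_at (0.261), lost their calls there. With any 1 array left out, 6 to 8 member probe sets were called between MVs and EXOs, where 6.77% to 8.04% of all probe sets were called. Between MVs and hESEVs it was 4 to 5 (4.21% to 4.57% of all), and between EXOs and hESEVs 4 to 6 (1.66% to 2.15%). Low signals limit every member in EXOs, UXT and VBP1 also in hESEVs, and URI1, PFDN1 and PDRG1 in every group.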
